A study of Mus musculus with 9 samples.

Results

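Ephrins, Slits, netrins and their receptors were first known as guidance cues of growing axons, and the kidney uses several of them. Ephrins are ligands held in the cell membrane, and they signal through Eph receptor tyrosine kinases on the neighbouring cell, often so that the cells separate or sort from each other. Slits are secreted ligands of Robo receptors, and loss of Slit2 or Robo2 in the mouse is known to cause extra ureteric buds, since the domain of the bud-inducing factor Gdnf is not cleared. Netrins are secreted, laminin-related ligands that attract through Dcc and repel through the Unc5 receptors. The guidance genes examined here were picked by name, at probe sets with 1 gene symbol in the array's annotation. A probe set is the group of short probes that reads 1 transcript. The names were Epha, Ephb, Efna and Efnb (the ephrins), Slit1 to Slit3, Robo1 to Robo4, Ntn (netrins), Unc5a to Unc5d and Dcc. They came to 37 genes, of 18194 named on the array in this way, and Ephb2 was not among them. These genes were covered by 73 probe sets. Where a gene had several, the one with the highest mean of the normalised log2 values over the 9 arrays stood for it, a choice that does not use the groups. For Epha4 and Epha7 another probe set had the higher mean of the deposited signals.

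The samples were renal vesicles, the first epithelial stage of the nephron, captured by laser from mouse kidneys at stage E12.5. Wild-type kidneys gave 5 samples and Lim1 mutant kidneys 4, each a separate sample of about 30 to 50 vesicles. Lim1 is the older name of Lhx1, whose product is a LIM homeodomain factor that acts in the early nephron. The sources used here do not give the mutant allele, whether the gene was removed in all cells, the strain, the sex, or how many embryos each sample came from. P-values measure the spread between these samples. In captured tissue, fewer cells of a type and less RNA per cell cannot be told apart.

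The arrays differed in ways that the groups do not explain. Median signals ranged from 144 to 195 over the 9 arrays. The least similar arrays were wild-type 3 and 1: their correlation with the others averaged 0.783 and 0.802 (log2 values across tested probe sets), where the remaining arrays had 0.826 to 0.864. Lhx1 read between 2327 and 17587 on the wild-type arrays and between 6.88 and 10.5 on the mutant arrays at 1 of its probe sets, and its brighter probe set read 1696 to 18555 and 4108 to 4951. Of the vesicle markers, 10 of 10 present on the array passed the filter on dim probe sets. Lhx1 is 1 of the 10, through its brighter probe set (-0.86 ± 0.58, adjusted p = 0.833). Its other probe set, left out of the list, had a difference of -6.64 ± 0.57 (adjusted p = 0.00329). Differences of the 10 listed were below 0 for 6 and above 0 for 4, with a median of -0.42, and none passed an adjusted p of 0.05. The Notch ligands Dll1 (-1.33 ± 0.48, adjusted p = 0.696) and Jag1 (-0.52 ± 0.21, adjusted p = 0.73) were the 2 with an unadjusted p under 0.05, both lower in the mutants (2.87% of all tested probe sets were lower at that p). The list's level is the median deviation of its members from their means over all 9 arrays. It ranged from -0.55 to 0.69 among wild-type arrays, a span that held every mutant array (-0.30 to -0.15). The 27022 probe sets whose mean reached the 40th percentile were tested together with limma, and every adjusted p below comes from that fit, adjusted by the Benjamini-Hochberg method. Differences are mutant minus wild type on a log2 scale, each with its standard error, and signals are as deposited, with n = 5 wild-type and n = 4 mutant arrays throughout. A signal depends on its probes, so the levels of different genes were not compared.

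No guidance gene passed an adjusted p of 0.05. Of all tested probe sets 9 did, or 0.0333%. Of the 37 genes, 6 lay below the filter (Epha6, Epha8, Epha10, Ntn3, Robo3 and Unc5d), which left 31 tested. An unadjusted p under 0.05 was reached by 6 of the 31, against 6.67% of all tested probe sets. They were Slit1, Slit2, Slit3, Unc5c and Ephb6, with higher signals in the mutants, and Ephb1, with a lower one. By direction the background was 3.8% higher and 2.87% lower. On the normalised scale the groups did not overlap at 2 of the 31, Slit2 and Unc5c, against 2.25% of all tested probe sets (1.37% when higher in the mutants, as both were). Differences lay above 0 for 20 genes and below 0 for 11, with a median of 0.18. Of all tested probe sets 52.7% lay above 0, with a median of 0.03. The level of the 31 genes, defined as for the vesicle list, was 0.62 and 0.56 on mutant arrays 2 and 3. On mutant arrays 1 and 4 it was -0.048 and -0.061, within the wild-type range of -0.40 to 0.12. A difference of at least 1 in either direction was found for 8 of the 31, and for 12.6% of all tested probe sets. Of the 31 genes, Epha3 alone had 1 group mean below the filter's threshold. Without wild-type array 1 the groups did not overlap at 4 genes (Slit1, Slit2, Unc5c and Efnb1), against 3.94% of all tested probe sets. Without wild-type arrays 1 and 3 they did not overlap at 6 of 29 tested genes, against 7.78%, and 7 reached an unadjusted p under 0.05, against 7.44%.

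**Figure D1:**
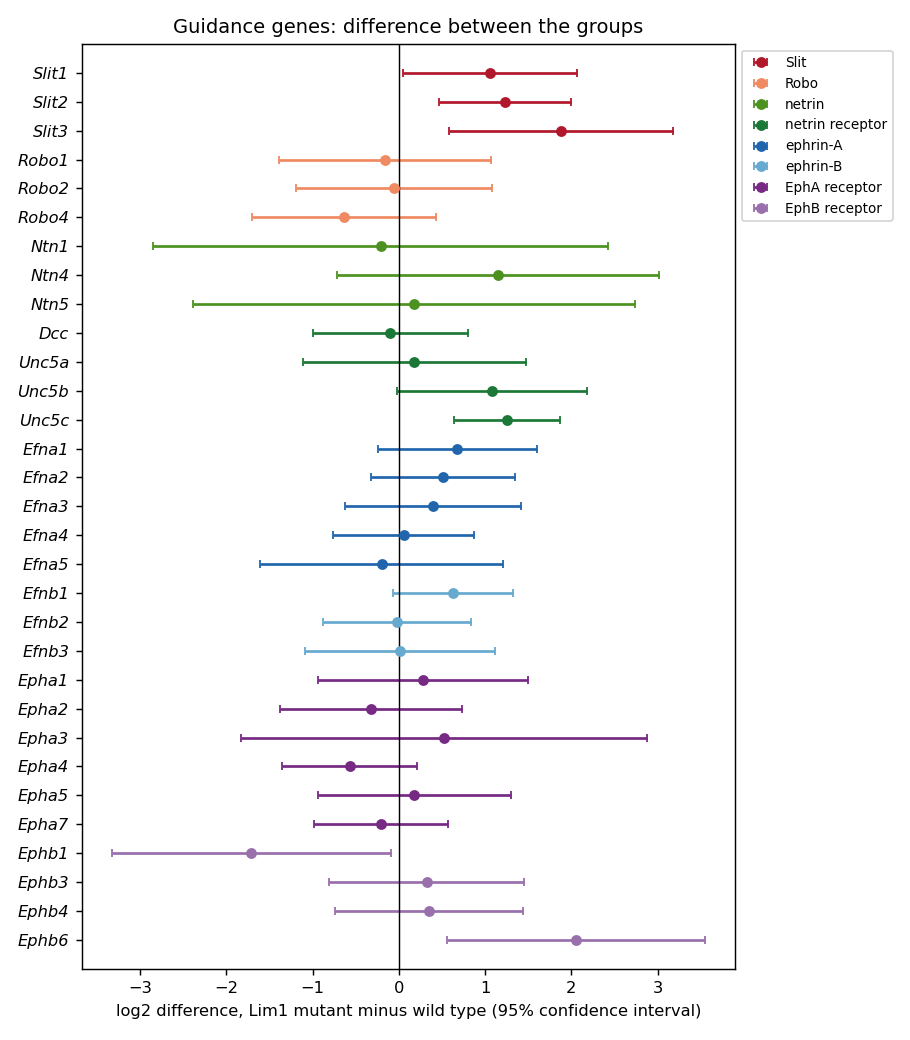
Log2 difference between Lim1 mutant and wild-type vesicles for the 31 tested guidance genes, coloured by family; points are estimates from limma and bars are 95% confidence intervals. The intervals of Slit1, Slit2, Slit3, Unc5c and Ephb6 lie above 0 and that of Ephb1 below 0, before any adjustment for the number of probe sets tested.

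The promoters of Unc5c, Slit2 and Slit3 are shown because these genes had the lowest unadjusted p among the 31. Each covers 250 bases before to 50 bases after the gene's start, read 5′ to 3′ on the + strand of GRCm38.p6 (RefSeq), and capitals mark every CpG dinucleotide. Of the 37 genes, 32 had at least 1 promoter in the RefSeq table, 37 promoters in all.
Unc5c, chr3:141465314-141465613: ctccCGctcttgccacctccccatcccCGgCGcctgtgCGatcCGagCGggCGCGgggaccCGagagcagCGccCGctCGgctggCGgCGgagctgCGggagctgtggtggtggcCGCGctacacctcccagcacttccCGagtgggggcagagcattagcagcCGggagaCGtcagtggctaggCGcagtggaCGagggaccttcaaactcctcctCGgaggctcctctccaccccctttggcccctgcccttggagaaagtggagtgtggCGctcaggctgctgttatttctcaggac
Slit2, chr5:47982905-47983204: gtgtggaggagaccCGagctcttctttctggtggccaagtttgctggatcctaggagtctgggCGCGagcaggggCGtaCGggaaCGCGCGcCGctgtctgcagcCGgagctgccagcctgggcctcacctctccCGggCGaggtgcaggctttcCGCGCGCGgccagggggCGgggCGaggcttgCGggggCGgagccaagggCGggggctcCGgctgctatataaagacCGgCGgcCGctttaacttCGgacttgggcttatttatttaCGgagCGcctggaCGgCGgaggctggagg
Slit3, chr11:35121206-35121505: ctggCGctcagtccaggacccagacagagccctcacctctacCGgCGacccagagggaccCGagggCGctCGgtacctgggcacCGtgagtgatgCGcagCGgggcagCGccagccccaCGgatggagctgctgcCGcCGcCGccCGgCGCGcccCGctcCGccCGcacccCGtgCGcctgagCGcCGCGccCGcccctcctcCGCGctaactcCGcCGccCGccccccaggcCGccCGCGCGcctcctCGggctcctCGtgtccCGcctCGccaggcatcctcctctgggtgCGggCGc

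These 3 promoters held 24, 30 and 41 CpG dinucleotides, where the median of all 32851 promoters in the table was 7.0. At least 20 were found in 20 of the 37 guidance promoters and in 26.5% of all. The letters TATAAA, the core of a TATA box, were searched on both strands. They occur in the Slit2 promoter, beginning 28 bases before the start, in 2 of the guidance promoters and in 13.6% of all promoters. TAATTA, a core that many homeodomain proteins bind and which reads the same on both strands, occurs in none of these 3, in 3 of the guidance promoters (Efna1, Epha5 and Robo3) and in 5.29% of all. A match or its absence describes these letters in this window only.

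Slits were the family in which each member had a difference of at least 1. Slit2, the ligand that acts in placing the ureteric bud, read 7436, 12802, 20639, 27178 and 24315 on wild-type arrays 1 to 5 and 34414, 46431, 53730 and 27653 on mutant arrays 1 to 4. Each mutant array lay above each wild-type array, although mutant array 4 and wild-type array 4 were close. The difference was 1.23 ± 0.35, or 2.35-fold, with a 95% confidence interval of 0.47 to 2.0 (adjusted p = 0.61). The other 2 Slit2 probe sets were dimmer and their differences of 0.80 ± 0.95 and 1.25 ± 0.79 had wide errors.

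Slit3, whose loss in the mouse is known for diaphragmatic hernia, read 239, 311, 732, 384 and 646 on the wild-type arrays and 563, 2482, 3215 and 1985 on the mutant arrays. Mutant arrays 2, 3 and 4 stood above every wild-type array and mutant array 1 lay within the wild-type range. Its difference was 1.88 ± 0.59, or 3.68-fold (95% interval 0.58 to 3.18, adjusted p = 0.652).

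Slit1, best known from the nervous system, read 1774, 730, 461, 1018 and 586 on the wild-type arrays and 1398, 2736, 1885 and 1320 on the mutant arrays. Wild-type array 1 lay among the mutants and the other wild-type arrays lay below them. The difference was 1.05 ± 0.46 (adjusted p = 0.738). The other Slit1 probe set, of nearly the same brightness rank, had a difference of -0.43 ± 0.54, and with both averaged the difference was 0.31. The result for Slit1 therefore depends on the probe set.

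The 3 tested Robo receptors had differences below 0, each smaller than 1. Robo1, a Slit receptor of many tissues, read 986 to 6353 in the wild type and 1346 to 5448 in the mutants (difference -0.16 ± 0.56, adjusted p = 0.977), while its further probe sets gave 1.71 ± 1.04 and -1.09 ± 0.81. Robo2, the receptor whose loss alters bud number, read 37.7, 264, 104, 205 and 54.3 on the wild-type arrays and 151, 155, 15.9 and 213 on the mutant arrays. Both groups spanned nearly the same range, and its difference was -0.05 ± 0.52 with an interval of -1.19 to 1.08 (adjusted p = 0.992). Differences inside that interval were not excluded here. Its only probe set lay just above the filter, at the percentile 41.5 of all means. Robo4, a Robo of endothelial cells, had signals of 253 ± 82.4 (SD) and 189 ± 134 in wild type and mutants (difference -0.64 ± 0.49, adjusted p = 0.861). Robo3, known from commissural neurons, was not tested, at means of 49.3 and 69.7. Differences between Slit and Robo genes were not tested against each other.

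**Figure D2:**
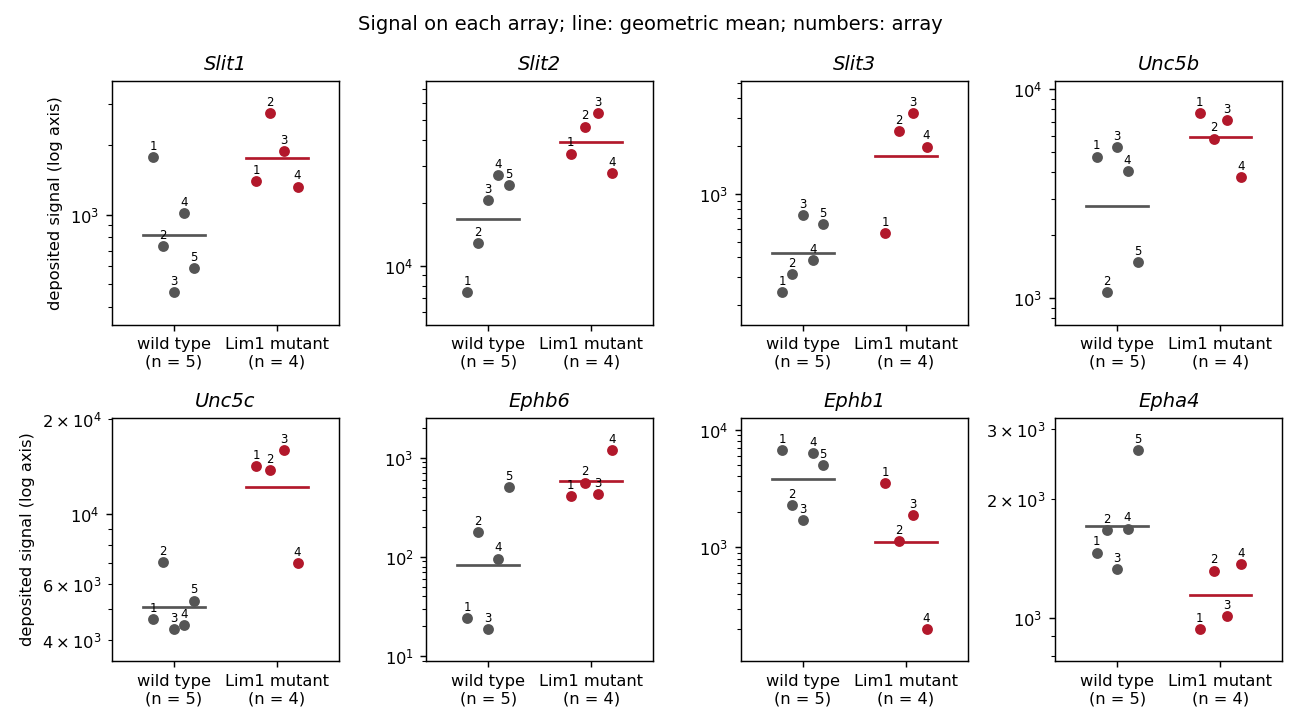
Deposited signal (log axis) on each array for 8 guidance genes in wild-type (grey) and Lim1 mutant (red) vesicles; lines are geometric means and numbers are array numbers. Slit2 mutant arrays lie above all wild-type arrays, while Slit3 mutant array 1, Slit1 wild-type array 1 and Unc5c mutant array 4 lie in or at the range of the other group.

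Among the netrin receptors, Unc5c had the lowest p of the 31 genes. It encodes a receptor through which netrin repels, and its brighter probe set read 4665, 7068, 4324, 4461 and 5327 on the wild-type arrays and 14197, 13796, 15979 and 7011 on the mutant arrays. Mutant arrays 1 to 3 stood well above the wild type, while mutant array 4 was level with wild-type array 2, below it as deposited and above it after normalisation. The difference was 1.26 ± 0.28, or 2.39-fold (95% interval 0.64 to 1.87, adjusted p = 0.357). The second Unc5c probe set gave 1.12 ± 0.43 from means of 1283 and 2846 (adjusted p = 0.715). Without mutant array 4 the first probe set had a difference of 1.52 and without wild-type array 2 one of 1.37.

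Unc5b, a netrin receptor also known from endothelium, read 4753, 1066, 5281, 4041 and 1495 on the wild-type arrays and 7670, 5798, 7136 and 3806 on the mutant arrays. Wild-type arrays 2 and 5 were low, and mutant array 4 lay within the wild-type range. The difference was 1.08 ± 0.50 (adjusted p = 0.75), against -0.07 ± 0.57 at its dimmer probe set. Unc5a had a difference of 0.18 ± 0.59, and Unc5d, which was not tested, had means of 53.3 and 109. Dcc, the attractive netrin receptor, read 275, 193, 340, 332 and 276 on the wild-type arrays and 298, 346, 170 and 360 on the mutant arrays. The groups covered the same range (difference -0.10 ± 0.41, adjusted p = 0.981), and the other 2 Dcc probe sets lay below the filter.

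Netrin ligands varied widely within each group. Ntn1, the best-known netrin, read 18.9, 667, 1540, 109 and 4.80 on the wild-type arrays and 8.08, 496, 779 and 6.87 on the mutant arrays. Each group held arrays near background and arrays well above it, and the difference was -0.21 ± 1.20 (adjusted p = 0.986). Ntn4, a netrin of basement membranes, read 2164, 324, 47.7, 582 and 140 on the wild-type arrays and 592, 971, 1845 and 421 on the mutant arrays. The lowest mutant array lay above 3 of the 5 wild-type arrays, and wild-type array 1 was the highest of all (difference 1.15 ± 0.85, adjusted p = 0.854). Without that array the Ntn4 difference was 1.80. Ntn5 had a difference of 0.18 ± 1.17, with signals from 29.0 to 2481 in the mutants, and Ntn3 was not tested.

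All 8 ephrins were tested and each difference was smaller than 1. Efnb2, the ephrin of arterial endothelium, read 5117, 8729, 17678, 7624 and 6229 on the wild-type arrays and 9622, 8264, 12098 and 4231 on the mutant arrays. The highest and the lowest array belonged to different groups and the rest overlapped (difference -0.02 ± 0.39, interval -0.88 to 0.84, adjusted p = 0.995). Its other tested probe sets gave -0.24 ± 0.67 and -0.23 ± 0.52. Efnb1, an X-linked ephrin that acts in cell sorting, read 7935, 3427, 5034, 5086 and 4954 on the wild-type arrays and 5401, 12830, 7031 and 7871 on the mutant arrays. Wild-type array 1 was above 3 of the 4 mutant arrays as deposited, and the other 4 wild-type arrays lay below every mutant array (difference 0.62 ± 0.32, adjusted p = 0.786). The other Efnb1 probe sets did not share that difference, at 0.00 ± 0.46 and -0.06 ± 0.46. Efnb3 had a difference of 0.01 ± 0.50.

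The 5 A-class ephrins, which are anchored to the membrane by a lipid, had differences from -0.20 for Efna5 to 0.68 for Efna1. Efna1, an ephrin also known from endothelium, had signals of 1196 ± 441 and 1839 ± 408 in wild type and mutants (difference 0.68 ± 0.42, adjusted p = 0.815). Efna2 had means of 4517 and 6453 (0.51 ± 0.38), with -0.47 ± 0.44 at its dimmer probe set, and Efna3 means of 651 and 992 (0.40 ± 0.47). The remaining member, Efna4, had a difference of 0.05 ± 0.37, with an interval of -0.77 to 0.87.

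The highest and the lowest difference among the 31 genes both belonged to Eph receptors of the B class. Ephb6, an Eph receptor without kinase activity, read 24.1, 179, 18.7, 96.3 and 507 on the wild-type arrays and 409, 560, 432 and 1196 on the mutant arrays. Wild-type array 5 lay within the mutant range and the other 4 wild-type arrays lay below it. The difference was 2.05 ± 0.68, or 4.15-fold (95% interval 0.55 to 3.55, adjusted p = 0.682). Wild-type arrays 1 and 3 were near background, so its size depends on the pseudocount, the constant added before taking log2. The Ephb6 difference was 2.47 with the 10th percentile of the intensities as pseudocount. With their median it was 1.33, below that of Slit3 (1.645).

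Ephb1, a receptor for B-class ephrins, read 6700, 2296, 1696, 6305 and 4969 on the wild-type arrays and 3489, 1129, 1869 and 201 on the mutant arrays. Mutant array 4 was the lowest by far, and mutant arrays 1 and 3 lay within the wild-type range. The difference was -1.71 ± 0.74, or 3.28-fold lower in the mutants (95% interval -3.33 to -0.10, adjusted p = 0.737). Without mutant array 4 it was -0.93. Ephb3, another receptor for B-class ephrins, had a difference of 0.32 ± 0.52. Ephb4, the Eph receptor of venous endothelium, read 1207, 478, 548, 674 and 287 on the wild-type arrays and 770, 1026, 955 and 468 on the mutant arrays. Its groups overlapped over nearly the whole range (difference 0.35 ± 0.50, adjusted p = 0.934).

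In the A class, all 4 tested probe sets of Epha4 had differences below 0. Epha4, a receptor that binds ephrins of both classes, read 1460, 1666, 1327, 1679 and 2656 on the wild-type arrays and 935, 1315, 1011 and 1364 on the mutant arrays. As deposited, mutant array 4 overlapped the wild type through wild-type array 3 alone. After normalisation mutant array 2 also lay above wild-type array 3 (difference -0.57 ± 0.36, adjusted p = 0.819). This is the probe set with the highest mean log2 value. The other 3 tested probe sets gave -1.82 ± 1.20, -2.33 ± 1.43 and -1.43 ± 0.53 (adjusted p = 0.826, 0.814 and 0.703). The first of these had the gene's highest deposited mean (3921 for wild type, 1558 for mutants), so the size of the Epha4 difference depends on the probe set. The first 2 varied widely within a group, from 34.3 to 3746 and from 4.91 to 2313 on the mutant arrays. With all its probe sets averaged, the Epha4 difference was -1.44 (adjusted p = 0.681).

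Epha7, a receptor known from the developing brain, read 2783, 2075, 2221, 4944 and 4273 on the wild-type arrays and 2863, 3042, 2820 and 2004 on the mutant arrays. Its mutant arrays lay within or just below the wild-type range (difference -0.21 ± 0.35, adjusted p = 0.946). Those of its remaining tested probe sets ranged from -0.27 to 0.61, the latter at the probe set with the highest deposited mean. Epha1, Epha2 and Epha5 had differences of 0.28, -0.32 and 0.18. Epha3 had a difference of 0.52 ± 1.07, with 1819 on wild-type array 3 and 899 on mutant array 4 and at most 112 elsewhere.

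**Figure D3:**
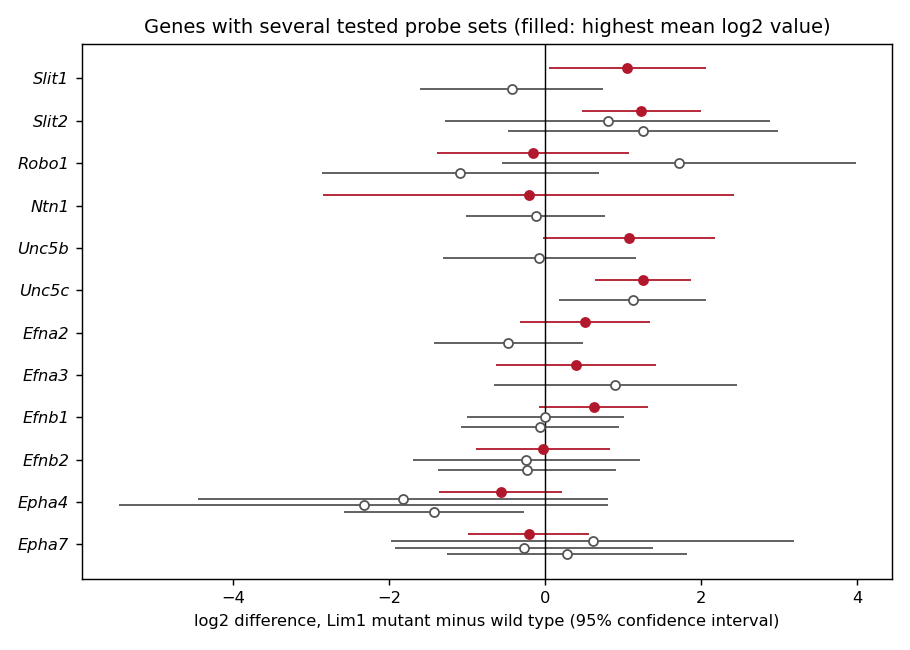
Log2 difference between Lim1 mutant and wild-type vesicles for each tested probe set of the 12 guidance genes with more than 1, with 95% confidence intervals; filled red points are the probe set with the highest mean log2 value and open grey points the others. The probe sets of Slit2, Unc5c and Epha4 share a sign, and those of Slit1, Unc5b, Robo1, Efna2, Efnb1 and Epha7 do not.

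Agreement between probe sets was mixed over the guidance genes. Of 12 genes with more than 1 tested probe set, 6 had the same sign at all of them (Slit2, Unc5c, Epha4, Efna3, Efnb2 and Ntn1). Probe sets of 1 gene read the same samples and are not replicates.

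**Figure D4:**
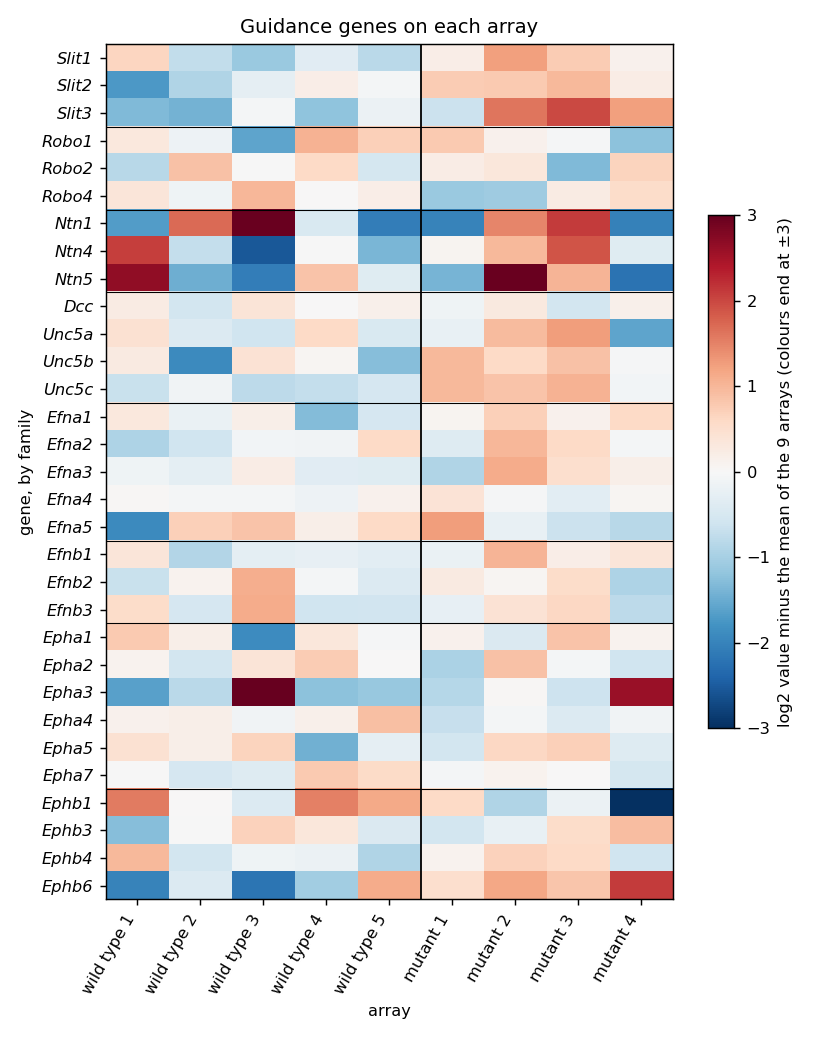
Log2 value of each of the 31 tested guidance genes (rows, by family) on each array (columns), minus the mean over the 9 arrays; red is above and blue below that mean, and colours end at ±3. Slit and Unc5c rows are mostly red on the mutant arrays, and the Ntn1, Ntn4, Ntn5 and Epha3 rows vary widely within each group.

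The genes through which these receptors signal, or which bind them, were taken from lists of Eph, Slit-Robo and netrin partners. Of 47 genes listed, 43 were tested and none passed an adjusted p of 0.05 (background 0.0333%), and 5 higher and 1 lower reached an unadjusted p under 0.05 (3.8% and 2.87% of all tested probe sets). Their differences had a median of 0.13, with 27 above 0 and 16 below. The groups did not overlap at 3 of them, Draxin, Flrt3 and Vav2 (2.25% of all tested probe sets). Draxin, a secreted protein that binds Dcc and netrin, read 171, 99.5, 173, 301 and 233 on the wild-type arrays and 1843, 992, 1777 and 652 on the mutant arrays. Its lowest mutant array was above its highest wild-type array (difference 2.39 ± 0.48, adjusted p = 0.329), while a dimmer probe set, not tested, had a difference of -0.68.

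Flrt3, a membrane protein that binds Unc5 receptors and Robo1, read 191, 1291, 860, 912 and 488 on the wild-type arrays and 1594, 2645, 2341 and 1541 on the mutant arrays. The groups were separate (difference 1.54 ± 0.50, adjusted p = 0.655), and the second probe set gave 1.49 ± 0.83. Vav2, an exchange factor downstream of Eph receptors, had signals of 2372 ± 663 and 1307 ± 335 in wild type and mutants (difference -0.85 ± 0.35, adjusted p = 0.732), with -0.98 ± 0.54 at its second tested probe set. Gdnf, the factor whose domain Slit2 and Robo2 limit, had a difference of 0.19 ± 0.58 (adjusted p = 0.973), and its receptor Ret one of -2.43 ± 1.26 (adjusted p = 0.789), with 0.01 ± 0.42 at the second tested Ret probe set.

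Markers of other cell types varied between arrays as well. All 13 tested endothelial markers had differences below 0, as did 47.3% of all tested probe sets. Their summed signals were 15221 to 33448 for wild type against 6023 to 8050 for mutants, and Pecam1 lay below the filter at 65.3 and 16.5. Cldn5, a tight junction protein known from endothelium, was the 1 marker that passed, with a difference of -3.40 ± 0.32 (adjusted p = 0.0045). It read 7988 to 10631 on the wild-type arrays and 609 to 1329 on the mutant arrays. Without Cldn5 the sums of the other 12 overlapped, at 5629 to 24203 and 5414 to 6967. Wild-type arrays 1 and 5 had sums of 5629 and 5726, where Cldn5 read 9592 and 10631, so Cldn5 did not follow the other markers there. Wild-type array 3 had the highest endothelial level (a median deviation of 1.47) and also the highest Efnb2 and Robo4 signals. Wild-type array 4 came next (0.93), with 7624 for Efnb2 and 229 for Robo4. On mutant arrays 1 and 4 the level was lowest, at -0.67 on each. There Efnb2 read 9622 and 4231, and Robo4 read 83.1 and 358. Ephb4, Efna1 and Unc5b, also known from endothelium, were highest on wild-type array 1 (1207), mutant array 2 (2245) and mutant array 1 (7670). Of 9 tested ureteric bud markers 8 had differences below 0, with sums of 17918 to 75492 and 8370 to 14655. Emx2 (-2.16 ± 0.50, adjusted p = 0.387) was the 1 with an unadjusted p under 0.05 in limma (2.87% of all tested probe sets were lower at that p). Its groups did not overlap (2.25% of all tested probe sets). Ret, given above, is also in this list. The level of this list overlapped between the groups, at -0.45 to 1.41 for wild type and -0.84 to 0.12 for mutants. Bright genes weigh most in a sum: Calb1 read 39640 on wild-type array 2 and 696 to 6566 on the other wild-type arrays. Cap mesenchyme markers, 5 above 0 and 4 below, had sums of 27271 to 40513 and 33186 to 38773. Of these, 2 were higher in the mutants at an unadjusted p under 0.05 in limma (3.8% of all tested probe sets). Macrophage markers had 7 differences above 0 and 3 below, neural markers 2 and 6, and erythroid markers 2 and 5. Stroma markers, 4 above 0 and 8 below, had sums of 20717 to 183812 and 17127 to 56261. Among the mutants the stroma level was 0.97 and 0.40 on arrays 2 and 3, which had the highest Slit1, Slit2 and Slit3 signals, and -1.49 and -0.68 on arrays 1 and 4. After normalisation Slit2 was nearly level on mutant arrays 1 and 2, at 15.345 and 15.365. The highest stroma level, 2.15, was on wild-type array 3, where Slit1, Slit2 and Slit3 read 461, 20639 and 732. Among the wild types array 2 came next (0.94), with 730, 12802 and 311. The part of these cells in the differences above was not tested.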

How the data were processed

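Per the submitters' processing notes, the deposited values were made with GCOS; the sources used here give neither its version nor its algorithm. The authors deposited 1 linear intensity per probe set and array, 45101 probe sets on 9 arrays, after amplification of the RNA in 2 rounds per the labels' protocols, which favours the 3 prime end of transcripts. The deposited trimmed mean was the same on each array. Genes were named through the platform annotation: 34958 probe sets had 1 symbol, 932 several and 9211 none.

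A pseudocount of 42.4, the 25th percentile of the deposited intensities, was added before taking log2, and arrays were quantile normalised. This scale understates differences of dim probe sets. Control probe sets (64) were left out, as were probe sets with a mean under the 40th percentile. Group differences were fitted with limma 3.58.1 in R 4.3.3 (eBayes, two-sided, with the variance trended on the mean) and p-values adjusted over all 27022 tested probe sets; the fit was tested on simulated data. The number of arrays limits the precision.

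The members and lists were chosen with earlier results of these data known. Values on every array are given for Slit2, Robo2, Efnb1, Efnb2, Ephb4, Epha4, Epha7, Unc5b, Ntn1, Ntn4 and Dcc, and for members without overlap or with an unadjusted p under 0.05. Partner genes are named where groups did not overlap at such a p, besides Gdnf, Ret and Lhx1. Alternatives varied the normalisation, pseudocount, filter, variance model, array weights, probe set choice, replicate block and arrays used.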

Additional observations from a re-analysis of the deposited data

Results flagged for a closer look

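Among 62 groups of values (31 genes in 2 groups), Dixon's test set 1 array apart from its group in 4 cases; at a chance of 1 in 20, about 3.1 would be. Efna5 read 246 on wild-type array 1, against 1520 to 2335 on the other wild-type arrays. Epha3 read 1819 on wild-type array 3, against 5.19 to 41.0 on the others. Epha4 read 2656 on wild-type array 5, against 1327 to 1679. Unc5c read 7011 on mutant array 4, against 13796 to 15979 on the other mutants.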

How the results depend on the processing

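No guidance gene passed an adjusted p of 0.05 in limma under any of the 21 alternatives run, while 4 to 8 reached an unadjusted p under 0.05, against 4.43% to 7.58% of all features tested. The choice of the probe set by the deposited mean was added after seeing the data. Of the 31 tested genes 18 kept their sign under each alternative that tested them, among them Slit1 (0.31 to 1.33), Slit2 (0.94 to 1.42), Slit3 (1.56 to 2.44), Unc5c (1.14 to 1.52), Ephb6 (1.26 to 2.56) and Ephb1 (-2.23 to -0.93). No alternative used the other Slit1 probe set alone, which had a difference of -0.43, so the kept sign of Slit1 does not cover that choice. The number of genes without overlap was 1 with no further normalisation (Slit2, background 2.39%), 1 with median centring (Epha4, 1.97%), 1 with probe sets averaged per gene (Unc5c, 2.49%), 6 without wild-type arrays 1 and 3 (7.78%), and 2 to 4 with each array left out (3.5% to 5.07%). Over the whole array 5 genes passed with probe sets averaged, 0 probe sets in limma with the replicate block (1756 at an unadjusted p under 0.05) and 0 without wild-type arrays 1 and 3 (2010 at such a p), and 3 to 8 with each array left out. The replicate numbers did not pair the samples, as judged on each array's deviations from its group's mean at every tested probe set. These deviations correlated at -0.105 to 0.0537 between same-numbered arrays. By them, 1 of 8 arrays correlated best with its own number in the other group. With that block 4 guidance genes reached an unadjusted p under 0.05 (background 6.5%), against 6 without it; Slit1 and Ephb1 no longer did (adjusted p = 0.831 and 0.788).

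Signs turned for differences near 0, and the cause was not tested. With no further normalisation Dcc was at 0.022 and Robo2 at 0.0073, and with median centring Efnb3 was at -0.072. With array weights Efnb2 was at 0.11 and Ntn1 at 0.092. With probe sets averaged Epha7 was at 0.10 and Robo1 at 0.15, and with the highest deposited mean Epha7 was at 0.61. With the replicate block Efnb3 was at -0.13 and Robo1 at 0.00063. Without wild-type arrays 1 and 3 Dcc was at 0.080, Efnb2 at 0.11, Epha1 at -0.0021 and Ntn1 at 0.15. With each array left out the ranges were -0.25 to 0.060 for Dcc, -0.073 to 0.17 for Efna4, -0.70 to 0.038 for Efna5, -0.21 to 0.28 for Efnb2, -0.20 to 0.29 for Efnb3, -0.16 to 0.51 for Epha1, -0.16 to 0.40 for Epha5, -0.95 to 0.51 for Ntn1, -0.78 to 0.94 for Ntn5, -0.58 to 0.22 for Robo1, -0.27 to 0.38 for Robo2 and -0.21 to 0.74 for Unc5a. Dim probe sets, such as those of Robo2, Epha3 and Ntn1, limit what could be detected.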
